A study of Homo sapiens with 12 samples.

Results

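Kinesins are the motor proteins that walk along microtubules. The genes described here are the 42 whose symbol in the deposited table is KIF or KIFC followed by a number, with or without a letter A to C, out of 61806 genes in that table. Antisense genes and pseudogenes named after kinesins were left out. They were measured in 12 libraries of established human papillary thyroid cancer lines, with 3 libraries in each of 4 groups: K1 cells with siRNA against TRIM35, K1 cells with a negative control siRNA, TPC-1 cells with the TRIM35 siRNA, and TPC-1 cells with the negative control siRNA. All 4 groups had been transfected and were harvested at 24 h, so no untransfected cells were compared. TRIM35 belongs to the tripartite motif proteins, many of which attach ubiquitin to other proteins. The sources used here give no siRNA sequence. They do not say either whether the 3 libraries of a group came from separate cultures, so the p-values speak only of library-to-library spread, possibly a technical one.

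Mitotic kinesins build and dismantle the spindle. Some slide antiparallel microtubules to push the poles apart, others trim microtubule ends or move chromosomes, and a further set organises the midzone where the cell divides. Their genes are generally transcribed late in the cell cycle and are silent in resting cells. Transport kinesins carry vesicles, mitochondria and other cargo along interphase microtubules and are also used by cells that do not divide. By these textbook roles the 42 genes were sorted into 14 mitotic, 17 transport, 6 cilium-related and 5 other kinesins. Of the 42, 36 had enough reads to be tested, namely 12 mitotic, 16 transport, 5 cilium-related and 3 other. The 6 that were not tested were KIF2B, KIF4B, KIF1A, KIF19, KIF25 and KIF26A, none of which averaged more than 0.04 FPKM in any group. FPKM is the number of fragments per kilobase of exon, scaled to the size of the library, so that genes of different length can be compared. KIF4B is a near-identical copy of KIF4A, and how reads matching both were counted is unknown.

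Library totals lay between 16705044 and 22928861 counts, and 22526 to 28045 genes had at least 1 count. No replicate pair matched within sampling noise. The thyroid transcription factors PAX8 and FOXE1 were above 1 FPKM in all 4 groups, whereas NKX2-1, another defining thyroid factor, had no count in any. For 1 library of TPC-1 control cells the title carries a different line name from its other labels. The fibroblast markers FAP and THY1, the leukocyte marker CD14 and the endothelial marker KDR were above 1 FPKM in K1, and PDGFRB was above 1 FPKM in TPC-1. In control libraries the summed fibroblast list (8 genes) came to 10.88 to 11.59 FPKM in K1 and 1.86 to 2.23 FPKM in TPC-1. Most of the K1 sum was THY1 and FAP, at 7.22 and 2.62 FPKM on average. DCN, LUM, COL1A1, COL1A2 and PDGFRA each averaged 0.35 FPKM or less in K1, and PDGFRB was lower there than in TPC-1. The endothelial list (4 genes) came to 1.42 to 1.70 FPKM in K1 and 0.08 to 0.10 FPKM in TPC-1. Most of that K1 sum was KDR, at 1.44 FPKM on average, while VWF, CDH5 and PECAM1 were each below 0.1 FPKM. The part of such differences in the kinesin values was not tested. TRIM35 itself had 1.20, 1.49 and 1.53 FPKM in K1 siRNA libraries, against 1.51, 1.85 and 1.47 FPKM in K1 control libraries. It had 2.34, 2.56 and 2.58 FPKM in TPC-1 siRNA libraries, against 2.86, 2.91 and 3.06 FPKM in TPC-1 control libraries. The groups overlapped in K1 and did not overlap in TPC-1, and edgeR called neither (log2 fold change -0.19 in K1, 95% interval -0.55 to 0.18, and -0.24 in TPC-1, interval -0.58 to 0.10; adjusted p = 1). The siRNA comparisons therefore rest on libraries in which a reduction of the targeted mRNA was not established.

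The mitotic kinesins set the lines apart. Summed over the class, mitotic kinesin mRNA came to 66.7 ± 2.70 FPKM in K1 control libraries and 335.1 ± 22.1 FPKM in TPC-1 control libraries (SD, n = 3 each). Transport kinesin mRNA came to 137.4 ± 6.54 FPKM in K1 and 149.6 ± 13.0 FPKM in TPC-1 (SD, n = 3 each). The mitotic class therefore made up 30.4% ± 1.83 of all kinesin FPKM in K1 control libraries and 66.6% ± 0.855 in TPC-1 control libraries (SD, n = 3 each). The mitotic sums of the lines did not overlap, while the transport sums did. These sums describe the libraries and were not tested, and much of the transport sum is 1 gene, KIF5B, which held 55.4% to 61.5% of it in K1 libraries and 61.1% to 67.9% in TPC-1 libraries.

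**Figure D1:**
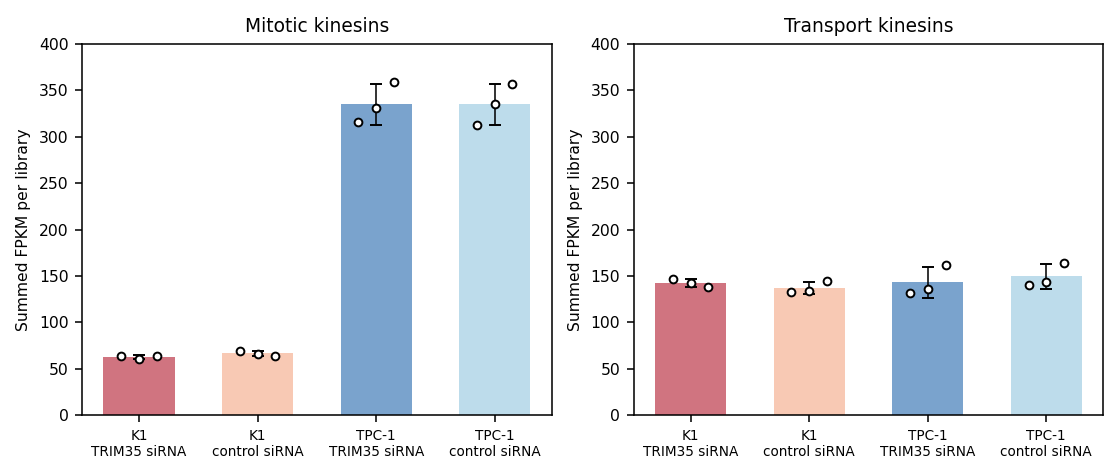
Summed FPKM of the mitotic kinesins (left) and the transport kinesins (right) in each library, by group; bars are means, error bars the SD of 3 libraries and circles single libraries. The mitotic means are 62.9 and 66.7 FPKM in K1 (siRNA, control) and 335.2 and 335.1 FPKM in TPC-1 (siRNA, control), while the transport means lie between 137.4 and 149.6 FPKM.

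The order of the genes within a line changed accordingly. In K1 control libraries KIF5B led at 78.4 FPKM, followed by KIF3B at 12.7, KIF18A at 11.5, KIF20A at 9.68 and KIF3A at 8.16, and neighbours from KIF3B down to KIF3A overlapped in their library values. In TPC-1 control libraries KIF5B led at 94.3 FPKM, and places 2 to 11 were all held by mitotic kinesins, from KIF11 at 55.7 and KIF20A at 44.9 down to KIF4A at 17.2 FPKM. KIF5B, KIF11 and KIF20A each stood clear of the next gene in TPC-1, whereas KIF20B, KIF23 and KIF18A overlapped. KIF1C, at 11.2 FPKM, was the highest transport kinesin after KIF5B in TPC-1.

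**Figure D2:**
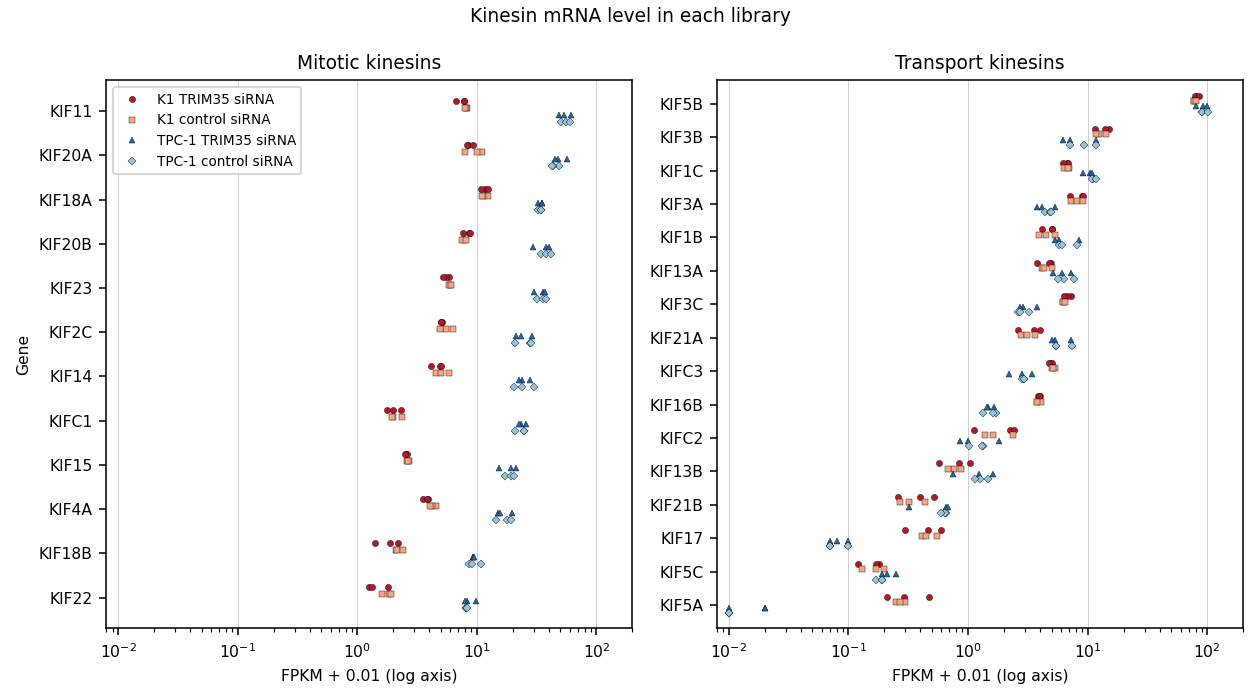
FPKM plus 0.01 (log axis) of each tested mitotic kinesin (left) and transport kinesin (right) in the 12 libraries, coloured by group. Mitotic kinesins of both K1 groups lie left of both TPC-1 groups for every gene, whereas transport kinesins lie on either side, with KIF3C and KIF16B higher in K1 and KIF1C and KIF21A lower.

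Between control libraries, 31 of the 36 tested kinesins differed between K1 and TPC-1 by edgeR's quasi-likelihood test at an adjusted p under 0.05, 9 of them higher and 22 lower in K1. The lines differed widely: of all 17447 genes tested, 67.9% passed, 35.8% higher and 32.1% lower in K1. The share of kinesins called is to be read against that background. How many of all genes had no overlap between the lines was not counted. The separations given below for single genes therefore have no such background. Direction and size differed between the roles. All 12 tested mitotic kinesins were lower in K1. Their median on the log2 scale was -2.33, or 5.04-fold, against 0.06 over all genes tested. The 16 tested transport kinesins split into 6 higher and 7 lower, with a median of 0.04. The mitotic values ran from -3.57 for KIFC1 to -1.66 for KIF18A, all below the lowest transport value, -1.05 for KIF21A, although the 95% interval of KIF18A (-1.93 to -1.39) touched those of KIF21A (-1.42 to -0.68) and KIF21B (-1.56 to -0.38). In bulk RNA, fewer cells in mitosis and less mRNA per cell cannot be told apart.

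Among the kinesins that build the bipolar spindle, KIFC1 had the largest difference. KIFC1 is a minus-end-directed motor that gathers spindle poles (chromosome 6, 33391823 to 33409896, plus strand, hg38). It had 2.37, 1.98 and 1.96 FPKM in K1 control libraries, against 20.9, 24.9 and 24.6 FPKM in TPC-1 control libraries, and the groups were far apart. The level was 11.9-fold lower in K1 (log2 fold change -3.57, SE 0.16, edgeR adjusted p = 1.63e-11). KIF11, also called Eg5, pushes the spindle poles apart (chromosome 10, 92574105 to 92655395, plus strand). It had 8.24, 8.12 and 7.94 FPKM in K1, against 51.0, 55.4 and 60.6 FPKM in TPC-1 control libraries, with no overlap (log2 fold change -2.88, SE 0.15, edgeR adjusted p = 8.32e-11). KIF15, a plus-end motor that assists KIF11 (chromosome 3, 44761721 to 44873376, plus strand), had 2.68, 2.62 and 2.65 FPKM in K1, against 17.3, 19.3 and 20.5 FPKM in TPC-1. Its values within K1 were nearly identical, and it was 7.68-fold lower there (log2 fold change -2.94, SE 0.15, edgeR adjusted p = 6.59e-11). KIF4A and KIF22 are chromokinesins, motors bound to chromosome arms, and were lower in K1 by log2 fold changes of -2.12 (SE 0.15) and -2.29 (SE 0.16). KIF15 overlaps TMEM42 on the same strand and KIF4A overlaps PDZD11 on the other strand, and the counting was not stated to use strand.

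The kinesins that act on microtubule ends were lower in K1 too. KIF18A, which damps chromosome movements by capping plus ends (chromosome 11, 28020619 to 28108156, minus strand), had 12.27, 11.16 and 10.99 FPKM in K1 control libraries, against 32.7, 34.5 and 34.5 FPKM in TPC-1 control libraries. The groups did not overlap, and the difference, 3.15-fold, was the smallest among the mitotic kinesins (log2 fold change -1.66, SE 0.13, 95% interval -1.93 to -1.39, edgeR adjusted p = 1.32e-08). Its interval lay above that of KIFC1, which ran from -3.90 to -3.24. KIF18B, its relative, had a log2 fold change of -2.19 (SE 0.14), and KIF2C, the microtubule depolymerase MCAK at centromeres, one of -2.29 (SE 0.17).

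The 4 kinesins of cytokinesis were lower by similar amounts. KIF20A carries the chromosomal passenger complex to the midzone (chromosome 5, 138178719 to 138187723, plus strand) and had 11.1, 10.1 and 7.91 FPKM in K1, against 48.9, 43.2 and 42.4 FPKM in TPC-1 control libraries. KIF20B (chromosome 10, 89701590 to 89774939, plus strand), which acts late in cytokinesis, had 7.74, 7.51 and 8.15 FPKM in K1, against 34.1, 37.5 and 41.3 FPKM in TPC-1. KIF23, the motor of centralspindlin (chromosome 15, 69414246 to 69448427, plus strand), had 5.90, 5.85 and 6.01 FPKM in K1, against 31.9, 35.6 and 38.0 FPKM in TPC-1. No K1 library reached a TPC-1 library for any of these genes. Their log2 fold changes were -2.30 (SE 0.16) for KIF20A, -2.37 (SE 0.15) for KIF20B and -2.67 (SE 0.13) for KIF23, and KIF14, which works with citron kinase at the midbody, had -2.37 (SE 0.15). KIF20A overlaps CDC23 and BRD8 on the other strand. Averaged over all 12 libraries, CDC23 had 15.1, BRD8 7.01 and KIF20A 28.3 FPKM. In K1 control libraries KIF20A averaged only 9.68 FPKM. Whether shared reads enter the KIF20A values was not tested.

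The proliferation markers moved with the mitotic kinesins. All 5 of 5 (MKI67, TOP2A, PCNA, CCNB1 and CDK1) were called lower in K1, as were 32.1% of all genes tested. Their median difference was -2.56 on the log2 scale. Their summed level lay between 161.4 and 197.5 FPKM in K1 control libraries and between 692.3 and 728.2 FPKM in TPC-1 control libraries. MKI67 had 5.12, 5.94 and 6.49 FPKM in K1, against 31.4, 31.7 and 44.1 FPKM in TPC-1 control libraries. The part of the share of dividing cells in the kinesin differences was not tested.

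The promoters of the mitotic kinesins shared short elements that the sorting by role did not use. Late cell cycle promoters are known for the cell cycle genes homology region, CHR, which the MuvB complex binds through LIN54, and for CCAAT boxes bound by NF-Y. RefSeq promoter windows (GRCh38.p14) of 250 bases before to 50 after a transcript start were matched by symbol for 34 of the 42 kinesins, with 43 windows in all; KIF13B, KIF19, KIF21B, KIF26B, KIF27, KIF5A, KIFC2 and KIFC3 were not matched. The windows below run from 80 bases before to 20 after the start and are shown for 6 mitotic kinesins and for KIF5B and KIF3B, the transport kinesins with the highest levels; capitals mark the CHR letters TTTGAA, the known variant of it TTTAAA, and the NF-Y box CCAAT, each on either strand.
KIF11 (chr10:92593050-92593149, plus strand): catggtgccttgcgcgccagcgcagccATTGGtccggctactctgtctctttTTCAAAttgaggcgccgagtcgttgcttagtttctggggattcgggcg
KIF4A (chrX:70290024-70290123, plus strand): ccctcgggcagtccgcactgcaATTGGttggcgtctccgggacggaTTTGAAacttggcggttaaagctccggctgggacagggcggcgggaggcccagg
KIF20A (chr5:138179032-138179131, plus strand): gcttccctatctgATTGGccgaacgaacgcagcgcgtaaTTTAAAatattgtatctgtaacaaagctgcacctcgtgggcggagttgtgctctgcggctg
KIF18A (chr11:28108137-28108236, minus strand): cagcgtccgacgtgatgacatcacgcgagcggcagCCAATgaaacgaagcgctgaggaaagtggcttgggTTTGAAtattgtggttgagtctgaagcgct
KIFC1 (chr6:33391743-33391842, plus strand): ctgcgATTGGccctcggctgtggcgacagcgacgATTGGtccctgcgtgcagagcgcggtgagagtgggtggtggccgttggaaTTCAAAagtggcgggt
KIF15 (chr3:44761714-44761813, plus strand): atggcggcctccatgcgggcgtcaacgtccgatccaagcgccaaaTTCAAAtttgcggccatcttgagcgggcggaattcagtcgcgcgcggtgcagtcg
KIF5B (chr10:32056406-32056505, minus strand): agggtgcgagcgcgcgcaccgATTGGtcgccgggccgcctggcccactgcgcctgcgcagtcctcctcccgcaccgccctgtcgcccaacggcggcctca
KIF3B (chr20:32277571-32277670, plus strand): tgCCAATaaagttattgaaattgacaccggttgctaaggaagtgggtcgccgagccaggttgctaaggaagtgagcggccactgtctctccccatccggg

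The CHR letters TTTGAA, read on both strands over the whole window and counted once per gene, were found in 10 of 14 mitotic kinesins (71.4%), in 1 of 12 transport kinesins (8.33%), and in none of 4 cilium-related and none of 4 other kinesins. Of all 27305 genes with a RefSeq window, 18.2% held them. The transport kinesin was KIF5B, whose match began 140 bases before the start and so lies outside the window printed. With the variant TTTAAA counted too, 12 of 14 mitotic kinesins (85.7%) had a match, against 27.9% of all genes; only KIF22 and KIF2B had neither. CCAAT was found in 11 of 14 mitotic kinesins (78.6%), in 4 of 12 transport kinesins (33.3%) and in 39.7% of all genes. TTTGAA and CCAAT stood together in 9 of 14 mitotic kinesins, against 7.26% of all genes. The 14 include KIF2B and KIF4B, which had too few reads to be tested. KIF4B held both elements, as did KIF4A, of which it is a near-identical copy, so these genes may not count as separate cases. The E2F letters GGCGGGAA were in no matched kinesin and in 3.79% of all genes.

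The spacing was close in several. The letters between a CCAAT box and the CHR that follows it numbered 18 in KIF14, 19 in KIF4A and KIF4B, 20 in KIF11 and 21 in KIF20A, where the CHR is the TTTAAA variant. Other kinesins had wider or narrower gaps, 29 in KIF18B, 30 in KIF18A, 45 in KIFC1 and 4 in KIF23, and in KIF20B, whose pair of CHR matches lies after the start, 117 and 123. KIF15 had TTTGAA 35 bases before its start and no CCAAT in the window. Over all genes the element was about as common on either side of the line difference: TTTGAA was in 15.6% of the genes called lower in K1, 15% of those called higher and 11.9% of those not called. Such matches are letters in a window and do not show binding.

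**Figure D3:**
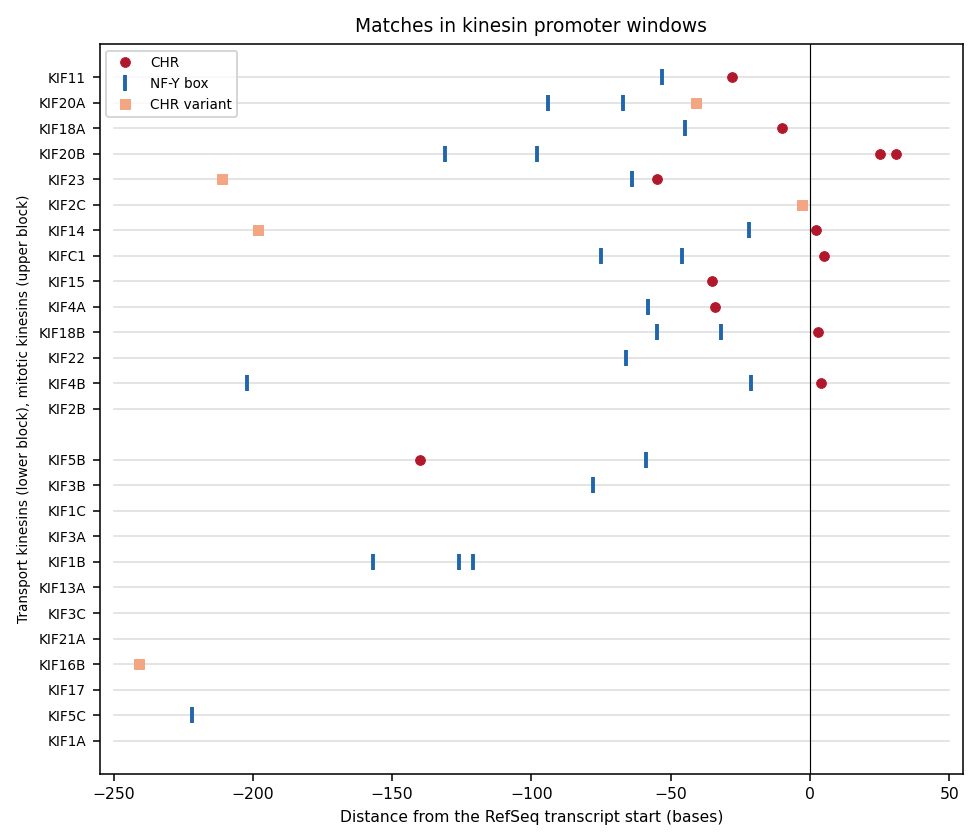
Distance in bases from the RefSeq transcript start to the left end of each match, for mitotic kinesins (upper block) and matched transport kinesins (lower block), each block ordered by mean FPKM; circles are CHR matches, squares its variant and ticks NF-Y (CCAAT) boxes. CHR matches lie within 55 bases before the start or just after it in the mitotic block, and the transport block holds a single one, in KIF5B, 140 bases before the start.

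KIF5B, the kinesin-1 heavy chain found in most tissues (chromosome 10, 32009015 to 32056425, minus strand), was the most abundant kinesin and differed little. It had 77.3, 77.0 and 81.1 FPKM in K1, against 90.0, 90.9 and 102.0 FPKM in TPC-1 control libraries. All K1 values were lower, by a log2 fold change of -0.36 (SE 0.13, edgeR adjusted p = 0.0215). That call ended under upper quartile scaling (-0.22, adjusted p = 0.0776), with no filter on low counts (-0.35, adjusted p = 0.074), with genes of at least 1 FPKM only (-0.24, adjusted p = 0.0698), and when K1 control library 2 (-0.35, adjusted p = 0.0707), K1 control library 3 (-0.36, adjusted p = 0.0542) or TPC-1 control library 3 (-0.30, adjusted p = 0.0725) was left out in edgeR. KIF5C, a neuronal relative, was below 0.2 FPKM in every control library and did not pass (-0.25, adjusted p = 0.265). KIF5A, the other neuronal form, had 67, 80 and 54 counts in K1 control libraries, against 1, 0 and 0 counts in TPC-1 control libraries, a ratio of 166 (95% Poisson interval 29.4 to 6580, covering counting error only). Its level was low even in K1, at 0.24, 0.29 and 0.26 FPKM, and it overlaps the more abundant DCTN2 on the other strand. DCTN2 averaged 8.35 FPKM in K1 and 8.23 FPKM in TPC-1 control libraries. Whether shared reads enter the KIF5A values was not tested.

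The kinesin-2 motors lay on the other side. This family forms the anterograde motor of cilia and also moves vesicles. KIF3A, the core subunit (chromosome 5, 132692628 to 132737638, minus strand), had 7.23, 8.17 and 9.08 FPKM in K1, against 4.38, 4.87 and 4.94 FPKM in TPC-1 control libraries, with no overlap (log2 fold change 0.68, SE 0.14, edgeR adjusted p = 4.93e-04). Its partner KIF3B (chromosome 20, 32277651 to 32335011, plus strand) had 12.3, 11.7 and 14.2 FPKM in K1, against 7.17, 9.41 and 11.7 FPKM in TPC-1. The KIF3B groups overlapped and it did not pass (0.33, 95% interval -0.12 to 0.78, edgeR adjusted p = 0.173), although under upper quartile scaling it did (0.48, adjusted p = 0.0455). KIF3C, the alternative partner, was higher in K1 by 1.05 (SE 0.14), at 6.29 FPKM on average in K1 and 2.84 FPKM in TPC-1. KIF17, a homodimeric member, had 0.40, 0.54 and 0.44 FPKM in K1, against 0.06, 0.06 and 0.09 FPKM in TPC-1, 6.08-fold higher (log2 fold change 2.60, SE 0.39, edgeR adjusted p = 2.48e-05). Thus 3 of 4 were called higher and none lower, where 35.8% of all genes tested were called higher and 32.1% lower. These families were grouped after the values had been seen.

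The kinesin-3 motors, which carry vesicles and organelles over long distances, mostly lay below. KIF1C, which carries dense-core vesicles and integrins (chromosome 17, 4997950 to 5028401, plus strand), had 7.02, 6.36 and 6.84 FPKM in K1, against 11.1, 10.9 and 11.7 FPKM in TPC-1 control libraries, well separated (log2 fold change -0.83, SE 0.11, edgeR adjusted p = 6.05e-06). KIF1B, a carrier of mitochondria and synaptic vesicle precursors (chromosome 1, 10210570 to 10381603, plus strand), had 3.95, 4.50 and 5.37 FPKM in K1, against 5.73, 6.06 and 8.11 FPKM in TPC-1 (log2 fold change -0.63, SE 0.17, edgeR adjusted p = 0.00465). The KIF1B values came close, 5.37 against 5.73 FPKM, without overlapping. KIF13A had -0.64 (SE 0.15), and KIF13B had 0.76, 0.67 and 0.87 FPKM in K1, against 1.26, 1.14 and 1.47 FPKM in TPC-1 (log2 fold change -0.85, SE 0.23, edgeR adjusted p = 0.00447). The exception was KIF16B, an endosome motor (chromosome 20, 16272104 to 16573448, minus strand), with 3.78, 4.08 and 3.79 FPKM in K1, against 1.33, 1.70 and 1.61 FPKM in TPC-1. It was 2.35-fold higher in K1 (log2 fold change 1.23, SE 0.13, edgeR adjusted p = 8.34e-07).

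KIF21A and KIF21B, kinesin-4 relatives that limit microtubule growth, had the lowest transport values. KIF21A (chromosome 12, 39293228 to 39443390, minus strand) had 2.74, 3.09 and 3.63 FPKM in K1, against 5.44, 5.45 and 7.34 FPKM in TPC-1 control libraries (log2 fold change -1.05, SE 0.17, edgeR adjusted p = 6.44e-05). KIF21B had 0.31, 0.43 and 0.26 FPKM in K1, against 0.65, 0.63 and 0.58 FPKM in TPC-1 (log2 fold change -0.97, SE 0.28, edgeR adjusted p = 0.00590). Neither pair of groups overlapped. Of the minus-end-directed C-terminal motors outside the spindle, KIFC3, which acts at cell junctions, was higher in K1 by 0.74 (SE 0.13), and KIFC2 did not pass (0.43, adjusted p = 0.189) although its K1 values all lay above its TPC-1 values.

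**Figure D4:**
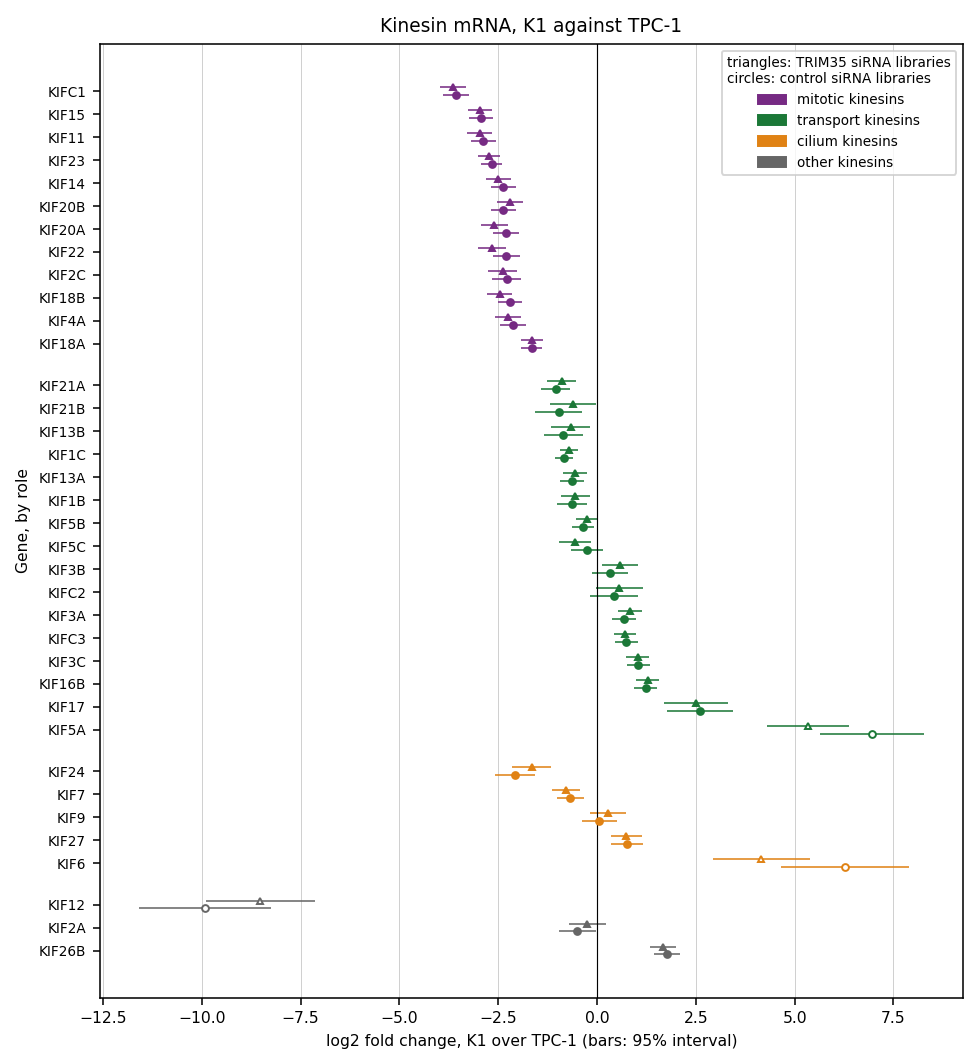
log2 fold change of K1 over TPC-1 for the 36 tested kinesins in TRIM35 siRNA libraries (triangles) and control libraries (circles), with 95% intervals, grouped by role; open symbols mark KIF5A, KIF6 and KIF12, which had 3 counts or fewer in a group, so that their fitted values are no measure of size. All 12 mitotic kinesins lie between -3.64 and -1.65 in both sets, and the transport kinesins lie on both sides of 0.

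The 5 tested cilium-related kinesins had no common direction, with 2 higher and 2 lower in K1. Of all genes tested, 35.8% were called higher and 32.1% lower. KIF6, an axonemal kinesin, had 39, 56 and 31 counts in K1, against 0, 1 and 0 counts in TPC-1 control libraries, a ratio of 104 (95% Poisson interval 18.3 to 4140). KIF27, a relative of the Hedgehog regulator KIF7 with a role in motile cilia of mice, had 2.43, 2.99 and 3.77 FPKM in K1, against 1.74, 1.53 and 1.79 FPKM in TPC-1 (log2 fold change 0.76, SE 0.19, edgeR adjusted p = 0.00216). Both genes were above TPC-1 in all 3 K1 control libraries. KIF24, which blocks the growth of cilia in cycling cells, had 0.47, 0.54 and 0.30 FPKM in K1, against 1.66, 1.52 and 2.04 FPKM in TPC-1, 4.22-fold lower (log2 fold change -2.08, SE 0.24, edgeR adjusted p = 1.32e-06). Its value fell in the range of the mitotic class, and it overlaps the more abundant UBAP1, at 23.6 FPKM on average, on the other strand. KIF7 had 1.12, 1.23 and 1.04 FPKM in K1, against 1.77, 1.64 and 1.67 FPKM in TPC-1 (log2 fold change -0.67, SE 0.16, edgeR adjusted p = 0.00149), and overlaps TICRR on the other strand. KIF9 did not pass (0.06, adjusted p = 0.807).

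Among the remaining kinesins, KIF12 separated the lines most sharply. KIF12, known from kidney and liver epithelia, had 0 counts in every K1 control library, against 128, 103 and 98 counts in TPC-1 control libraries, so it was at least 133-fold lower in K1 with a floor of 3 counts over the group. In TPC-1 control libraries that corresponded to 2.26, 1.87 and 1.75 FPKM. KIF26B, a kinesin that is thought to lack motor activity and acts in Wnt signalling, had 1.9, 1.6 and 1.88 FPKM in K1, against 0.54, 0.39 and 0.55 FPKM in TPC-1 (3.42-fold higher, log2 fold change 1.77, SE 0.16, edgeR adjusted p = 7.06e-08). KIF2A, a microtubule depolymerase used both in the spindle and in interphase, had 7.46, 7.55 and 8.82 FPKM in K1, against 7.67, 10.5 and 13.2 FPKM in TPC-1. Its groups overlapped and it did not pass (-0.50, edgeR adjusted p = 0.0564). It did pass without TPC-1 control library 1 (-0.66, adjusted p = 0.0148) and under some other settings.

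The genes that work with the motors were read from lists sorted in the same way by known role. Of 25 tested spindle and midzone partners, 23 were lower in K1 and 2 higher, and the median was -2.35 on the log2 scale. Of all genes tested, 32.1% were called lower and 35.8% higher in K1. Those shares are the background for this list and for the transcription regulators below. ANLN, the scaffold of the cytokinetic ring, averaged 13.2 FPKM in K1 and 172.3 FPKM in TPC-1 control libraries (-3.80, SE 0.16, edgeR adjusted p = 1.25e-11). AURKB, the kinase of the chromosomal passenger complex that KIF20A carries, had -3.11 (SE 0.15) and its partner CDCA8 -2.85 (SE 0.12). The 2 that were higher in K1, named after their values were seen, were CIT, the kinase partner of KIF14 (0.89, SE 0.15), and NUMA1, the pole-focusing protein (0.77, SE 0.14). Of the 21 partners with a promoter window, 15 (71.4%) held TTTGAA, against 18.2% of all genes with a RefSeq window. Of 15 tested cell cycle transcription regulators, 11 were lower and 3 higher with a median of -1.48. MYBL2, which binds the MuvB complex, averaged 2.52 FPKM in K1 and 50.9 FPKM in TPC-1 (-4.42, SE 0.20), and the repressor E2F8 had -3.78 (SE 0.23). E2F2, an activator, averaged 0.02 FPKM in K1 and 1.503 FPKM in TPC-1 (-6.20, SE 0.41). The 3 regulators higher in K1, named after their values were seen, were E2F7, RBL2 and LIN37. They averaged 22.24, 14.44 and 1.127 FPKM in K1 control libraries, against 11.3, 9.157 and 0.6967 FPKM in TPC-1 control libraries.

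The partners of transport motors were mixed, as the motors were. Their counts stand against the 35.8% of all genes called higher and 32.1% called lower in K1, and the total called among the adaptors and among the dynein and dynactin genes was near the 67.9% of all genes. Of 15 tested kinesin light chains and cargo adaptors, 7 were higher and 3 lower in K1 with a median of 0.26. MAPK8IP1, a scaffold that links kinesin-1 to cargo, averaged 3.33 FPKM in K1 and 0.0167 FPKM in TPC-1 (7.48, SE 0.40). The light chain KLC4 had 1.80 (SE 0.16) and TRAK2, a mitochondrial adaptor, -1.05 (SE 0.12). Of 25 tested dynein and dynactin genes, which form the opposing motor, 5 were higher and 13 lower with a median of -0.43. The heavy chain DYNC1H1 averaged 5.16 FPKM in K1 and 14.02 FPKM in TPC-1 (-1.54, SE 0.22), DCTN6 had -1.18 (SE 0.17), and the light chain DYNLL2 had 1.01 (SE 0.12). Of 26 intraflagellar transport and BBSome-related genes, the cargo system of kinesin-2 in cilia, 15 were higher and 6 lower with a median of 0.64. IFT74 averaged 5.93 FPKM in K1 and 0.220 FPKM in TPC-1 (4.67, SE 0.21), BBS2 had 1.29 (SE 0.12) and IFT81 1.02 (SE 0.12). All these values are K1 over TPC-1 control libraries by edgeR's quasi-likelihood test.

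The lines were also compared in the TRIM35 siRNA libraries, whose levels do not enter the fold changes above, although all 12 libraries share the fit's estimate of spread. There 31 of 36 kinesins were called by edgeR, 10 higher and 21 lower in K1, with 68.3% of all genes called, 35.9% higher and 32.4% lower. All 12 mitotic kinesins were lower, with a median of -2.55. KIFC1 had 1.75, 2.31 and 1.98 FPKM in K1 siRNA libraries, against 23.2, 22.4 and 25.6 FPKM in TPC-1 siRNA libraries (log2 fold change -3.64, SE 0.16, edgeR adjusted p = 1.41e-11). KIF11 had 7.78, 6.69 and 7.82 FPKM in K1, against 48.6, 53.6 and 61.8 FPKM in TPC-1 siRNA libraries (-2.97, SE 0.15). The groups did not overlap for either gene. Transport kinesins split into 7 higher and 6 lower with a median of 0.16. All 4 kinesin-2 genes were called higher in these libraries, KIF3B included (0.58, SE 0.21, edgeR adjusted p = 0.0229), while KIF5B did not pass (-0.25, adjusted p = 0.105). KIF12 had 0, 1 and 0 counts in K1, against 254, 128 and 121 counts in TPC-1 siRNA libraries.

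Within a line, no kinesin was called between TRIM35 siRNA and control libraries, nor was any of the 17447 genes by edgeR (0% called in K1, in TPC-1, in the difference between the lines and in their mean). Over all genes, 136 had an unadjusted p under 0.05 in K1, 337 in TPC-1, 301 in the difference and 277 in the mean. Each is a smaller share of the 17447 genes than the 0.05 expected with no change, so the test may have been too strict. The reason was not tested. In the same order DESeq2 called 0, 2, 2 and 0 genes. No kinesin had an unadjusted p under 0.05 in any of these 4 comparisons by edgeR with the settings used throughout or by DESeq2. With no filter on low counts edgeR gave 1 in K1, 1 in TPC-1, 1 in the difference and 0 in the mean, and without TPC-1 siRNA library 3 it gave 0, 3, 2 and 1 in the same order. limma on log2(FPKM + 1) gave 1 in the mean. Leaving out K1 siRNA library 2 or 3, K1 control library 3, or TPC-1 control library 1 or 2 also gave 1 kinesin in at least 1 comparison. In K1 the median over the mitotic kinesins was -0.13 with 10 of 12 below 0, and over the transport kinesins 0.06 with 11 of 16 above 0. In TPC-1 the medians were -0.02 with 8 of 12 below 0 and -0.04 with 12 of 16 below 0. The medians over all genes were -0.0039 in K1 and 0 in TPC-1, and 51.02% and 49.21% of all genes lay below 0. Between libraries of a group, the class median on the log2 scale had a pooled SD of 0.14 for mitotic and 0.12 for transport kinesins. With a library left out, the mitotic median in K1 ran from -0.15 to -0.05. The 95% intervals stayed within 2-fold for 35 of 36 kinesins in K1 and for 32 of 36 in TPC-1, the exceptions being KIF12 in K1 and KIF5A, KIF6, KIF12 and KIF17 in TPC-1. Changes smaller than these intervals were not detectable with 3 libraries a group.

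The smallest p-values in K1 belonged to KIF18B, KIF22 and KIF7. KIF18B had 1.88, 2.16 and 1.40 FPKM in K1 siRNA libraries, against 2.10, 2.15 and 2.42 FPKM in K1 control libraries (log2 fold change -0.29, 95% interval -0.60 to 0.02, edgeR adjusted p = 1). KIF22 had 1.25, 1.31 and 1.78 FPKM in siRNA libraries, against 1.84, 1.89 and 1.60 FPKM in control libraries (-0.29, interval -0.64 to 0.06, edgeR adjusted p = 1). Both pairs of groups overlapped, and KIF7, at 1.06, 0.83 and 0.91 FPKM against 1.12, 1.23 and 1.04 FPKM in control libraries, overlapped narrowly (-0.28, interval -0.63 to 0.07). Among the 36 tested kinesins, KIF11, KIF23, KIF15 and KIF4A had all siRNA values below all control values in K1 and none had all above. Over all genes tested, 2.85% lay wholly below and 1.89% wholly above in K1. For KIF11 the values were 7.78, 6.69 and 7.82 FPKM in siRNA libraries, against 8.24, 8.12 and 7.94 FPKM in control libraries (-0.12, interval -0.41 to 0.17, edgeR adjusted p = 1).

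In TPC-1 the smallest p-values belonged to KIF6, KIF5A and KIF12, the first pair with few counts. KIF6 had 3, 3 and 0 counts in TPC-1 siRNA libraries, against 0, 1 and 0 in control libraries, and KIF5A had 2, 2 and 1 counts, against 1, 0 and 0 counts. KIF12 had 4.46, 2.03 and 1.76 FPKM in siRNA libraries, against 2.26, 1.87 and 1.75 FPKM in control libraries (0.47, interval -0.18 to 1.13, edgeR adjusted p = 1). TPC-1 siRNA library 1 alone held the high KIF12 value, and without it the log2 fold change was -0.015. KIF1C and KIF7 were the tested kinesins whose siRNA values all lay below control in TPC-1, at -0.14 (SE 0.11) and -0.17 (SE 0.16), and none lay wholly above. Over all genes tested, 2.06% lay wholly below and 2.53% wholly above in TPC-1. KIF7 also had the smallest p in the mean of both lines (-0.22, interval -0.47 to 0.02, edgeR adjusted p = 1). Between lines, the siRNA effect on KIF20A differed by -0.31 (interval -0.76 to 0.15) and that on KIF22 by -0.37 (interval -0.85 to 0.11), with K1 below TPC-1 and adjusted p = 1 in both by edgeR.

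**Figure D5:**
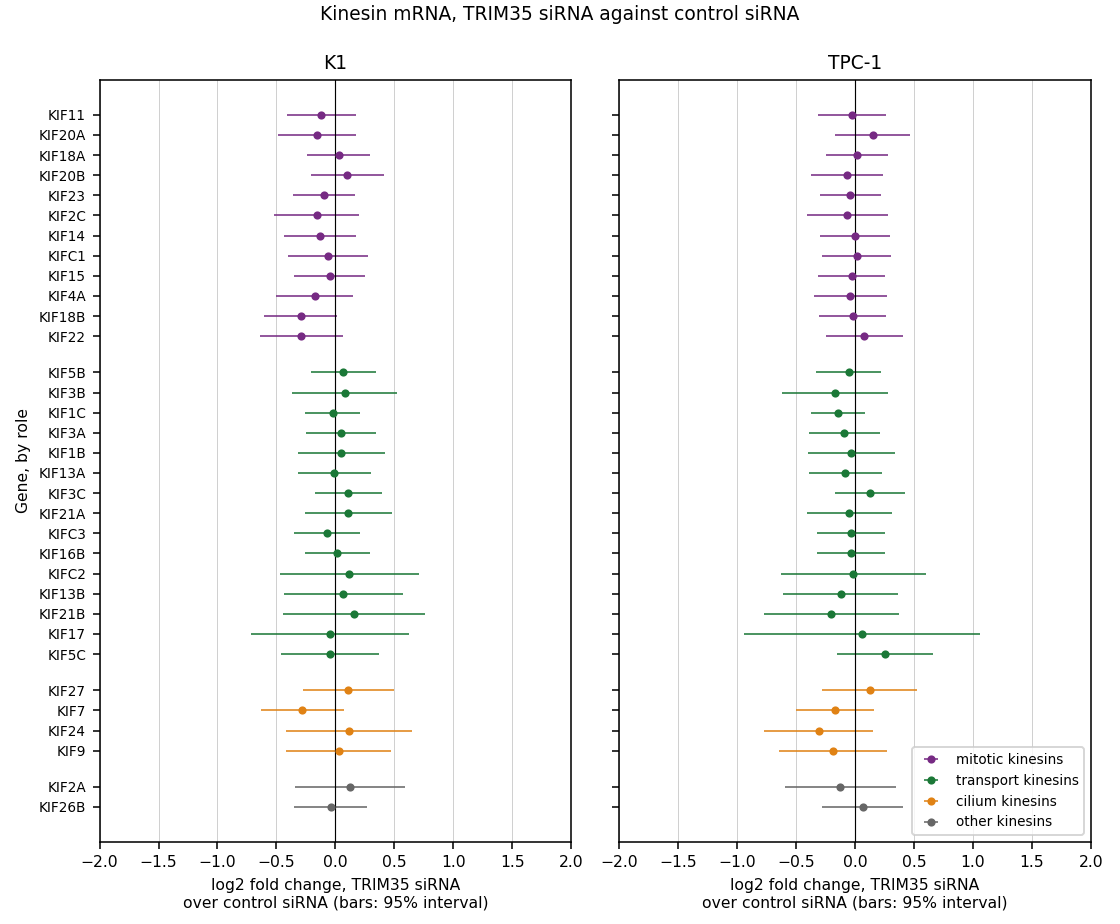
log2 fold change of TRIM35 siRNA over control siRNA in K1 (left) and TPC-1 (right) for 33 tested kinesins, with 95% intervals, coloured by role; KIF5A, KIF6 and KIF12 are left out of both panels because each had 6 or fewer summed counts in both groups of 1 line. Every interval drawn includes 0.

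Libraries varied within groups in ways that touch these values. Relative to the control mean of the line, the mean log2 level of the mitotic kinesins was -0.18, -0.17 and -0.01 in K1 siRNA libraries 1 to 3, and 0.11, -0.02 and -0.09 in K1 control libraries. The first principal component of all genes in K1, which held 54.3% of the variance, put siRNA library 3 and control library 1 at the same end and siRNA libraries 1 and 2 with control library 3 at the other. MKI67 had 7.19, 6.26 and 4.24 FPKM in K1 siRNA libraries, against 5.12, 5.94 and 6.49 FPKM in K1 control libraries. In TPC-1 the mitotic values were -0.13, 0.02 and 0.10 in siRNA libraries and -0.13, 0.03 and 0.10 in control libraries, and the first component (39%) put the libraries numbered 1 at one end and those numbered 3 at the other. KIF2A varied widely there, at 6.43, 9.15 and 13.2 FPKM in TPC-1 siRNA libraries, against 7.67, 10.5 and 13.2 FPKM in control libraries. The part of these library differences in the siRNA values was not tested.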

How the data were processed

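Gene expression in 12 libraries was read by RNA sequencing, from total RNA extracted with TRIzol and copied with random primers, per the labels' protocols. The submitters' processing notes name cutadapt 1.9.1 and the build hg38. No aligner, counting program, strand setting or annotation release is named in the sources used here. Raw counts and FPKM values stand side by side in 1 table deposited by the authors. There the deposited FPKM equal the count over exonic size and over the sum of all counts in that library, as checked on the table.

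The counts were analysed in R 4.3.3 with edgeR 4.0.16. After filterByExpr 17447 genes were tested; the 44359 left out held between 0.0838% and 0.200% of the counts in a library. TMM scaling and a quasi-likelihood fit to 4 group means over 12 libraries (8 residual degrees of freedom) gave the log2 fold changes, and a call means a Benjamini-Hochberg adjusted p under 0.05 across all genes tested. Standard errors are the size of the log2 fold change over the root of its F statistic. K1 was compared with TPC-1 in control and in siRNA libraries, and siRNA with control in each line, with the difference and the mean of those effects. The fit was tested on simulated counts, drawn independently for each library with the same dispersion for every gene. Of 100 genes changed by 1 on the log2 scale, 91 were recovered between control lines and 94 between siRNA and control in TPC-1. No library difference shared by many genes was simulated, so the simulation does not cover those seen within groups here. Alternatives used DESeq2 1.42.0, limma 3.58.1, other scalings and filters, other class definitions, and each library left out.

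The members, role classes and lists were chosen with earlier results of these data known, so no list was tested as a whole. Control library values are given for the 5 mitotic and 5 transport kinesins with the highest mean FPKM. They are also given for the 3 called members of each class with the largest change in each direction between control lines. For the 3 smallest p-values of siRNA against control within each line, values of both groups are given. For the difference and the mean of the siRNA effects, only effects are given, without the low-count KIF5A and KIF6. Up to 3 partners per list by adjusted p are given as means or log2 fold changes. Further members were named after their values were seen. Counting intervals and floors cover counting error only. Gene coordinates are those of the deposited table, whose annotation release is not named, and promoter windows are from RefSeq. A window need not lie at the gene start given: that of KIF11 lies inside the printed gene span. The last 30 bases of 32 of 43 windows were found in a GENCODE 29 transcript of the gene.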

Additional observations from a re-analysis of the deposited data

How the results depend on the processing

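All 12 tested mitotic kinesins remained lower in K1 in both sets of libraries under each scaling, filter, tool and left-out library tried, and no kinesin was called between siRNA and control under any of them. The count of kinesins called between the control lines ran from 30 to 32 when a library was left out and that between the siRNA lines from 29 to 32, and the siRNA count was 20 when a 2-fold change was also asked. With that limit 1 transport kinesin was lower in control libraries, and in siRNA libraries 4 were higher and 0 lower. limma gave 3 lower transport kinesins in siRNA libraries with either pseudocount, 0.1 or 1. The mitotic median was -2.19 under upper quartile scaling and -2.08 with limma on log2(FPKM + 1) in control libraries, and -2.13 with that limma fit in siRNA libraries. The transport median in control libraries was 0.19 under upper quartile scaling, 0.35 with no filter, 0.18 with limma on log2(FPKM + 0.1) and 0.38 without KIF21A and KIF21B. In siRNA libraries it was 0.29 under upper quartile scaling, -0.25 with no filter, 0.29 for genes of at least 1 FPKM and 0.57 without KIF21A and KIF21B; why these medians moved was not tested beyond the genes each setting adds or drops. The median of all genes between control lines was 0.06 with TMM, 0.205 with upper quartile scaling, 0.16 with summed counts only and 0.25 with no filter. With KIF2A counted as mitotic the mitotic share was 32.3% in K1 siRNA, 34.1% in K1 control, 69.5% in TPC-1 siRNA and 68.7% in TPC-1 control libraries; without KIF5B it was 45.2%, 47.4%, 82.7% and 82.0% in the same groups. The siRNA effect on KIF12 in TPC-1 ran from -0.015 without TPC-1 siRNA library 1, whose KIF12 count was the highest, to 0.72 without TPC-1 siRNA library 3. KIF2A was called lower in K1 with no filter (-0.49), with only the groups compared (-0.49), and without TPC-1 siRNA library 1 (-0.49), TPC-1 siRNA library 3 (-0.50) or TPC-1 control library 1 (-0.66). Deviations of same-numbered libraries correlated at -0.491, 0.086 and -0.526 in K1 and at 0.379, 0.086 and 0.406 in TPC-1. Not every pair was above 0.1, so the numbers were not taken to pair the libraries. In TPC-1, but not in K1, each library correlated best with its own number, a hint from the data and not from the design. With the replicate number as a block, 32 kinesins were called between control lines and 31 between siRNA lines, KIF2A being the addition (-0.46, adjusted p = 0.0369). Without K1 siRNA library 3 and K1 control library 3 together, no kinesin was called and 3 had an unadjusted p under 0.05 in K1. In that setting 2 kinesins had such a p in the difference between the lines and 3 in the mean.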

Other observations

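Antisense genes named after kinesins, which the selection left out, were scarce. KIF9-AS1 averaged 0.233 FPKM in K1 siRNA, 0.263 in K1 control, 0.157 in TPC-1 siRNA and 0.113 FPKM in TPC-1 control libraries. KIF23-AS1 averaged 0.110 FPKM in K1 siRNA, 0.0633 in K1 control, 0.217 in TPC-1 siRNA and 0.167 FPKM in TPC-1 control libraries. The pseudogene KIF4CP was at 0 FPKM in every library.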
